A study of Mus musculus with 18 samples.

Results

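A group of 10 genes that switch off growth-factor and stress signalling was followed through the first days after a heart attack in mice: the MAP kinase phosphatases Dusp1, Dusp2, Dusp4, Dusp5, Dusp6, Dusp8 and Dusp10, and the Sprouty genes Spry1, Spry2 and Spry4. They were chosen by name as a gene family with a shared function, among the 30583 genes in the deposited tables, and all 10 passed the filter on low counts that left 16311 genes for testing. RNA came from the left ventricle of 12-week-old male C57BL/6JR mice, 3 mice in each of 6 groups. In 5 groups an infarction was made by tying off the left anterior descending coronary artery, and the mice were killed 10 min or 1, 6, 24 or 72 h later. Sham mice (0 h) were operated on alike, and the suture was passed around the artery but left untied. All mice were anaesthetised with sodium pentobarbital for surgery and with isoflurane before they were killed; no gene was modified and no drug was tested.

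MAP kinases such as ERK, JNK and p38 are enzymes that become active when phosphorylated and pass on signals from growth factors, stretch and cell stress. The MAP kinase phosphatases (dual-specificity phosphatases) remove those phosphates again, and Sprouty proteins damp the signal further upstream, between receptor tyrosine kinases and ERK. Several of these genes are themselves switched on by the signal they end, so their transcripts serve as a negative feedback loop; in the heart the ERK, JNK and p38 pathways are known for their part in hypertrophy, cell survival and the response to ischaemia.

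Among members with different time courses are Dusp1, with its highest level at 1 h, Dusp5, with its highest at 6 h, and Dusp8. With the main scaling of libraries Dusp8 was called lower than sham at 72 h, but not with libraries scaled by their total count. The promoters of these 3 genes are shown here because their courses can be set beside the letters upstream of each RefSeq start. The sequences are from RefSeq (GRCm38.p6), which held a promoter for 8 of the 10 members. They are printed 5′ to 3′ on the gene's strand, begin 250 bases before the RefSeq start, and are trimmed where annotated untranslated sequence begins. The windows of Dusp1 and Dusp8 lie inside the gene spans of the GENCODE M21 annotation given below, which begin further upstream than the RefSeq start. Capitals mark matches to the cyclic AMP response element (CRE) TGACGTCA, to its shorter form TGACG, and to the CArG box, the letters bound by serum response factor.
Dusp1, chr17:26508520-26508722, minus strand: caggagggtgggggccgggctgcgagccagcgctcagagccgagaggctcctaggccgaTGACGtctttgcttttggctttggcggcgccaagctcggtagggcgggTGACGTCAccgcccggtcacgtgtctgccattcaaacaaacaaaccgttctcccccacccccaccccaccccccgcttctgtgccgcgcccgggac
Dusp5, chr19:53528895-53529108, plus strand: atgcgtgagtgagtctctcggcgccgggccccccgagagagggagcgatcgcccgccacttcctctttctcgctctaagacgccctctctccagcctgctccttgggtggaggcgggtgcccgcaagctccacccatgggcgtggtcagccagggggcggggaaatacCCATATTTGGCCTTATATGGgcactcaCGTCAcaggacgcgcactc
Dusp8, chr7:142095285-142095534, minus strand: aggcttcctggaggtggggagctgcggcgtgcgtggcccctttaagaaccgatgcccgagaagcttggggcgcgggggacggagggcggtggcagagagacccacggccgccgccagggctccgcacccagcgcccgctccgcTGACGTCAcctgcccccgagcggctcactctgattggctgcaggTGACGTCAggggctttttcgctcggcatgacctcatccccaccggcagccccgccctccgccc
The Dusp1 promoter held 1 CRE, 143 to 136 bases before the start, and the Dusp8 promoter held 2, at 107 to 100 and at 63 to 56 bases. Such a match was present in 1.55% of 32851 promoter windows of 250 bases, both strands searched. The Dusp5 promoter held 2 adjacent CArG boxes, 82 to 73 and 72 to 63 bases before the start, a motif found in 1.47% of windows, and a TGACG match on the other strand (read as CGTCA) that lies outside any full CRE; the short form, which is also part of every CRE, was in 17.8% of windows. Among the 8 promoters, the GC box GGGCGG was found in 6, against 32.7% of all windows, and the E-box CACGTG in Dusp1 and Dusp2, against 6.02%. None held the AP-1 letters TGANTCA (6.75% of windows), the ETS letters CCGGAA (12%) or the NF-kB motif (7.25%). A match describes letters only. Both Dusp1 and Dusp8 held a CRE, and its part in their time courses was not tested.

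Libraries held 18.2 to 25.1 M counts (M for mega), so that each member other than Dusp2 and Dusp4 had at least 95 counts in every library; Dusp2 had 5 to 7 counts per sham library and Dusp4 43 to 77. Levels are given as CPM (counts per M counts, scaled by TMM so that libraries of different makeup can be compared), and a gene is called changed where the edgeR quasi-likelihood test gave an adjusted p under 0.05 over all genes tested. Although the labels name cardiomyocytes as the cell type, no separation of cells is described, and markers of endothelial cells, fibroblasts and macrophages were present in sham. The summed level of 8 cardiomyocyte markers was 52535 to 57992 CPM in sham and 12109 to 16626 CPM at 72 h, while 8 fibroblast markers went from 892.6 to 1016 CPM to 11173 to 14696 CPM, and 8 monocyte and macrophage markers from 291.6 to 334.7 CPM to 3527 to 4620 CPM. Since the tissue is bulk, fewer cells of a type and less RNA per cell cannot be told apart. At 6 h replicate 1 and at 24 h replicate 3 held the highest sums of 8 neutrophil markers in their groups, 926.8 CPM against 433 and 269.4, and 984.7 CPM against 296.4 and 107.9; sham had 5.375 to 7.571 CPM, with Ly6g at 0 in all 3 libraries. Other marker sums differed in these libraries too. Within their groups both were lowest for cardiomyocyte markers (46825 and 23306 CPM) and highest for monocyte and macrophage markers (375 and 735.1 CPM). The 6 h library was also highest for endothelial, smooth muscle, atrial and epicardial markers, but not for fibroblast markers. At 6 h replicate 1 was also highest for 9 of the 10 members, and at 24 h replicate 3 for 9 of the 10. The log2 differences from sham at those times are given below with and without these libraries. The part of neutrophil RNA, or of other differences in makeup, in them was not tested.

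Members were called higher at different times, and in the main edgeR fit (all 18 libraries, TMM) none was called both higher and lower than sham at different times. At 10 min 0 of 10 were called, against 0.0736% of all genes. At an unadjusted p under 0.05, 3 members passed, as did 1144 of the 16311 genes tested. DESeq2 called Dusp1, among 60 genes in all. At 1 h 3 were higher (Dusp1, Dusp6 and Spry1), against 0.288% of all genes. At 6 h 8 were higher, all but Dusp8 and Dusp10, against 16.3% of all genes. At 24 h 5 were higher (Dusp2, Dusp4, Dusp5, Dusp6 and Spry4), against 23.7%. At 72 h Dusp2 and Dusp6 were higher, against 34.2%, and Dusp8 and Dusp10 were lower, against 32.2%. The late calls depended on the scaling. With libraries scaled by their total count, 8 of the 10 were higher at 24 h, against 34.1% of all genes, and at 72 h 5 were higher (Dusp2, Dusp4, Dusp5, Dusp6 and Spry1), against 58.1%, and 0 lower, against 14.6%; limma on FPKM gave the same 5 and 0 at 72 h. The median log2 fold change (log2FC) of the 10 went from 0.34 at 10 min through 0.75 (1 h), 1.06 (6 h) and 0.60 (24 h) to -0.11 (72 h), beside medians of all tested genes between -0.01 and 0.03. The F test over the 5 times called all 10 members, with 78.4% of all genes called. At an unadjusted p under 0.05, 3 members (Dusp1, Dusp8 and Dusp10) moved in opposite directions at different times, and DESeq2 called 2 such (Dusp1 and Dusp10) and limma 0. In the fits of only the libraries compared, edgeR called Dusp1, Dusp8, Spry2 and Spry4 in both directions. With no filter on low counts it did so for Dusp8 and Dusp10. Some edgeR fits without a library also did so for Dusp1, Dusp8, Dusp10 or Spry2. The shares of all genes that did so were not counted.

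**Figure D1:**
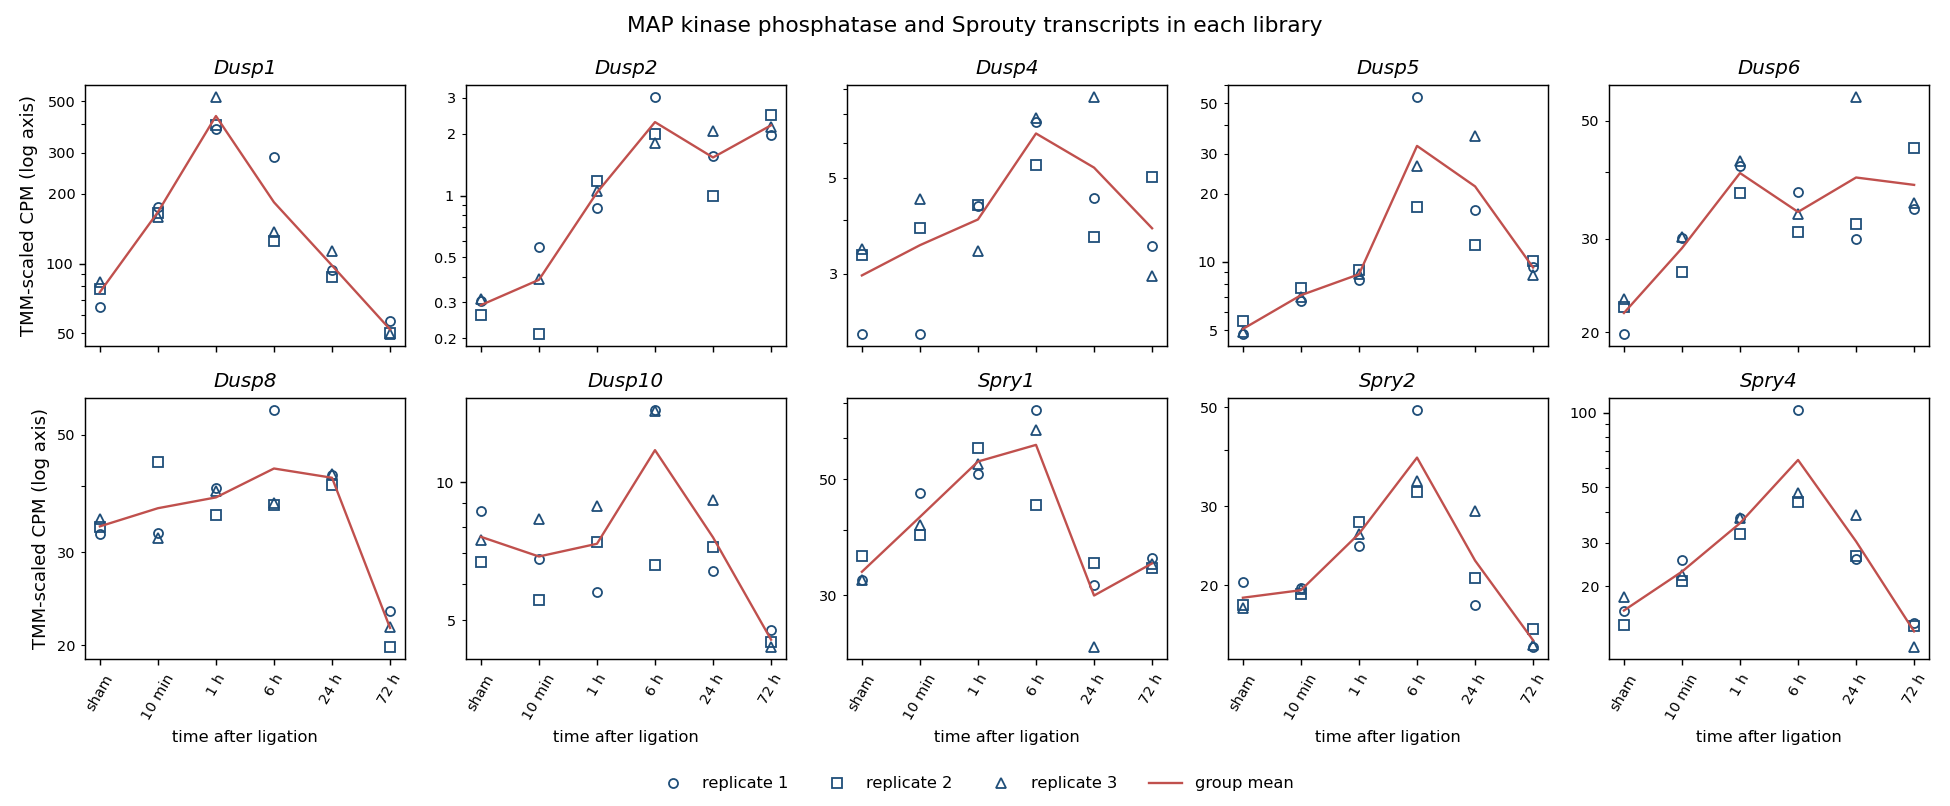
TMM-scaled CPM (log axis) of each of the 10 genes in each library, by time after ligation; symbols are the 3 mice of a group and the line joins group means. Dusp1 peaked at 1 h (380 to 523 CPM), most other members at 6 h, and replicate 1 at 6 h (circle) was the highest 6 h library for every member except Dusp4.

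Dusp1 (ENSMUSG00000024190, chr17:26505590-26562128, minus strand, mm10) encodes a nuclear phosphatase of p38, JNK and ERK and is a classic immediate early gene. It held 64.9, 77.7 and 83.3 CPM in the 3 sham libraries and 176, 166 and 158 CPM at 10 min. The 10 min libraries were all above the sham libraries, at a fold of 2.21, yet the change was not called (log2FC 1.15, SE 0.24, edgeR adjusted p = 0.167). It was called by DESeq2, in the fit of only the libraries compared, and without replicate 1 at 6 h. By 1 h the values were 380, 394 and 523 CPM, 5.74-fold above sham (log2FC 2.52, SE 0.25, edgeR adjusted p = 0.000113) and 2.59-fold above 10 min (edgeR adjusted p = 0.0186). Dusp1 was the only member called between 10 min and 1 h, where 0.307% of all genes were called; the call was lost with no filter on low counts, without any of the 10 min libraries or without replicate 3 at 1 h (highest adjusted p 0.138).

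The peak of Dusp1 was followed by a fall in stages. At 6 h replicate 1 had 288.8 CPM and the other two 125.4 and 136.9 CPM, so all 3 lay between the sham and the 1 h libraries. The mean of 184 ± 91.2 CPM (SD, n = 3) was 2.44-fold above sham (edgeR adjusted p = 0.00116) and 2.35-fold below 1 h (edgeR adjusted p = 0.00185; not called in the fit of only the 2 groups compared). Without replicate 1 the mean was 131.2 CPM and the log2FC against sham 0.80 in place of 1.29, still called. At 24 h the libraries held 94.1, 87.4 and 113 CPM, above all sham libraries but not called (log2FC 0.38, 95% interval -0.09 to 0.85; 0.27 without replicate 3); with library totals and with limma they were. The decrease from 6 h was called (-0.90, edgeR adjusted p = 0.0108), was -0.42 without replicate 1 at 6 h, and was not called with limma or in the fit of only those 2 groups. At 72 h they held 56.5, 50.0 and 49.7 CPM, all below the sham libraries, with an edgeR adjusted p of 0.0615; DESeq2 and the fit of only those 2 groups called them lower. The step from 24 to 72 h was a called decrease (log2FC -0.91, SE 0.24, edgeR adjusted p = 0.0049). The mean of Dusp1 was 8.30 times higher at 1 h than at 72 h.

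Dusp2 (ENSMUSG00000027368, chr2:127336159-127338376, plus strand) encodes a nuclear phosphatase known mainly from activated immune cells, and in sham it was the scarcest member. The sham libraries held 0.303, 0.259 and 0.311 CPM, the 10 min libraries 0.560, 0.210 and 0.391, and the 1 h libraries 0.869, 1.18 and 1.05. The 1 h libraries were all above sham, at a fold of 3.48, with an edgeR adjusted p of 0.07 at these low counts (18 to 20 per library). That change was called in 4 of 9 other settings, DESeq2 among them, and in 3 of 18 fits without a library. At 6 h Dusp2 stood at 3.04, 2.01 and 1.81 CPM, 7.67-fold above sham (log2FC 2.94, SE 0.37, edgeR adjusted p = 2.29e-05). At 24 h it was at 1.55, 0.990 and 2.06 CPM (log2FC 2.35, edgeR adjusted p = 9.93e-05) and at 72 h at 1.99, 2.47 and 2.16 CPM (2.89, edgeR adjusted p = 1.09e-06). All libraries from 1 h on were above all sham libraries. Neither the step from 6 to 24 h nor that from 24 to 72 h was called by edgeR with TMM on all 18 libraries. Without replicate 3 at 24 h the rise from 24 to 72 h was called (edgeR adjusted p = 0.0363). The increases at 6, 24 and 72 h kept their call in every alternative fit; without replicate 1 the log2FC at 6 h was 2.69, and without replicate 3 that at 24 h was 2.09. The monocyte and macrophage marker sum was 278.8 to 375 CPM at 6 h, 627.9 to 735.1 CPM at 24 h and 3527 to 4620 CPM at 72 h; its part in the Dusp2 level was not tested.

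Dusp4 (ENSMUSG00000031530, chr8:34807297-34819894, plus strand), another inducible nuclear phosphatase, moved least among the 4 nuclear phosphatases. Sham libraries held 2.17, 3.32 and 3.42 CPM, and the 10 min and 1 h libraries, from 2.18 to 4.47 CPM, overlapped them. At 6 h the values were 6.74, 5.36 and 6.87 CPM, 2.12-fold above sham (log2FC 1.08, SE 0.29, edgeR adjusted p = 0.0105). At 24 h they were 4.49, 3.64 and 7.68 CPM (log2FC 0.81, SE 0.29, edgeR adjusted p = 0.0321), and the highest came from replicate 3. Without that library the 24 h change was 0.45 (adjusted p 0.236), and without sham replicate 1 the 6 h change missed the threshold (adjusted p 0.0593). The 24 h call was also lost without sham replicate 1 or sham replicate 2 and in the fit of only the 2 groups. At 72 h, with 3.47, 5.02 and 2.96 CPM, Dusp4 overlapped sham (log2FC 0.36, 95% interval -0.21 to 0.93), while with library totals it was called higher (0.94).

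Dusp5 (ENSMUSG00000034765, chr19:53529109-53542431, plus strand) encodes an ERK-specific nuclear phosphatase that is induced by ERK signalling itself. It had 4.80, 5.50 and 4.89 CPM in sham, 6.72, 7.68 and 6.98 at 10 min and 8.36, 9.24 and 8.86 at 1 h. Each group lay wholly above the one before, yet neither time was called against sham (log2FCs 0.50 and 0.80, SE 0.41 each). In the fit of only the 2 groups compared the 1 h change was called (edgeR adjusted p = 0.00379). The later libraries differed among themselves, with 53.4, 17.5 and 26.4 CPM at 6 h and 16.9, 11.9 and 35.8 CPM at 24 h. Even the lowest of these 6 libraries was above every sham, 10 min and 1 h library. Dusp5 was 6.39-fold above sham at 6 h (log2FC 2.68, SE 0.40, edgeR adjusted p = 0.000276), 3.67-fold above 1 h (edgeR adjusted p = 0.00316), and 4.22-fold above sham at 24 h (log2FC 2.08, SE 0.40, edgeR adjusted p = 0.000886). The libraries highest for Dusp5 at 6 and 24 h were those highest in neutrophil and in monocyte and macrophage markers, and lowest in cardiomyocyte markers, in their groups. Without replicate 1 the 6 h mean went from 32.4 to 22.0 CPM and the log2FC to 2.12, and without replicate 3 the 24 h mean went from 21.5 to 14.4 CPM and the log2FC to 1.50, both still called. At 72 h Dusp5 held 9.46, 10.1 and 8.75 CPM, above all sham libraries, with a log2FC of 0.90 and an edgeR adjusted p of 0.0589. It was called higher in 5 of 9 other settings (library totals, where it was 1.49, only the 2 groups compared, DESeq2 and both limma fits) and in 4 of 18 fits without a library. Its fall from 24 to 72 h (log2FC -1.18, edgeR adjusted p = 0.0162) was lost without replicate 3 at 24 h (-0.61, adjusted p 0.125), without replicate 3 at 72 h, and when libraries were scaled by total or tested as FPKM.

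Dusp6 (ENSMUSG00000019960, chr10:99263231-99267489, plus strand) encodes a cytoplasmic phosphatase that is specific for ERK. It was called higher than sham at 4 of the 5 times. Sham libraries held 19.8, 22.25 and 23.1 CPM, the 10 min libraries 30.1, 26.0 and 30.2 CPM, and the 1 h libraries 41.0, 36.6 and 41.9 CPM. It held 36.8, 30.9 and 33.3 CPM at 6 h, 29.9, 31.9 and 55.5 CPM at 24 h, and 34.2, 44.4 and 35.1 CPM at 72 h. Every library after ligation was above every sham library. Against sham the log2FC was 0.88 (1 h), 0.63 (6 h), 0.84 (24 h) and 0.80 (72 h), SE 0.18 each, with edgeR adjusted p of 0.0468, 0.0144, 0.00121 and 0.00071. No step between consecutive times was called. The 1 h call is the least firm of these: it was lost in 5 of 9 other settings and in 13 of 18 fits without a library, with log2FCs that stayed between 0.76 and 0.93. The 6 h call was lost without sham replicate 1, without replicate 1 at 6 h (log2FC 0.56) and with limma on log2(FPKM + 1), while the 24 h and 72 h calls held in every fit, the 24 h change being 0.51 without replicate 3.

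**Figure D2:**
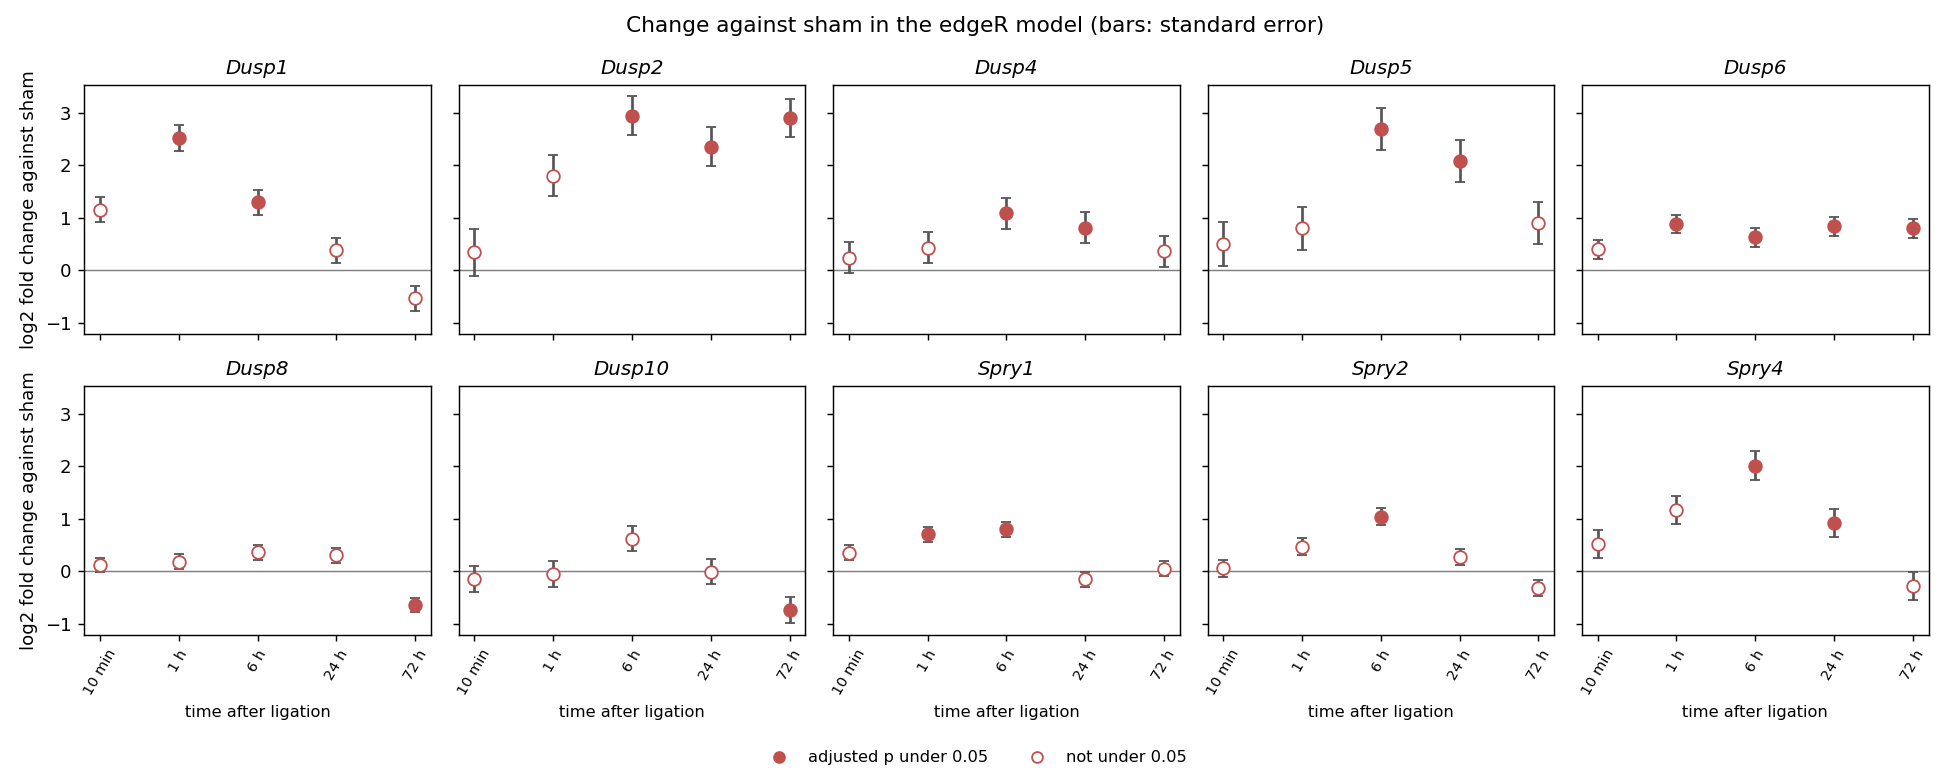
Log2 fold change against sham from the edgeR model for each gene and time, with bars of 1 standard error; filled points have an adjusted p under 0.05. Dusp1 is highest at 1 h (2.52), Dusp5 and Spry4 at 6 h (2.68 and 2.01), Dusp2 stays between 2.35 and 2.94 from 6 to 72 h, and Dusp8 and Dusp10 are the only members called lower, at 72 h (not with library totals).

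Dusp8 and Dusp10 encode phosphatases that act mainly on JNK and p38, and both were called lower than sham at 72 h. Dusp8 (ENSMUSG00000037887, chr7:142079490-142095843, minus strand) held 32.5, 33.55 and 34.7 CPM in sham, 31.9 to 44.5 CPM at 10 min, 35.3 to 39.75 CPM at 1 h, 36.8 to 55.7 CPM at 6 h and 40.3 to 42.2 CPM at 24 h. The 6 and 24 h libraries were all above sham, but neither time was called (log2FCs 0.36 and 0.30, edgeR adjusted p = 0.0658 and 0.0909). Without replicate 1 the 6 h value was 0.14, and without replicate 3 the 24 h value was 0.29; the 24 h difference was called with library totals, with limma and in the fit of only those 2 groups. At 72 h Dusp8 held 23.3, 19.8 and 21.6 CPM, below every other library of the series. It was 1.56-fold below sham (log2FC -0.64, SE 0.14, edgeR adjusted p = 0.000712) and 1.92-fold below 24 h (-0.94, edgeR adjusted p = 2.57e-05). The cardiomyocyte marker sum was lower in the same libraries; its part in the level of Dusp8 was not tested.

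Dusp10 (ENSMUSG00000039384, chr1:184013302-184075636, plus strand) held 8.645, 6.69 and 7.46 CPM in sham and 5.54 to 8.86 CPM at 10 min and 1 h. At 6 h replicates 1 and 3 had 14.4 and 14.3 CPM, above all sham libraries, and replicate 2 had 6.60 CPM, below all of them. The 6 h change was not called in the main edgeR fit (log2FC 0.62, SE 0.24, edgeR adjusted p = 0.0621), and was 0.45 without replicate 1. It was called by edgeR without replicate 2 (0.91), without replicate 3 at 24 h and with no filter on low counts, and by DESeq2. At 24 h, with 6.39, 7.22 and 9.13 CPM, the groups overlapped (-0.01; -0.16 without replicate 3). At 72 h the libraries held 4.76, 4.48 and 4.36 CPM, all below sham (log2FC -0.74, SE 0.25, edgeR adjusted p = 0.0127; 0.0511 without sham replicate 1). The fall from 24 h was called (-0.74, edgeR adjusted p = 0.0179), but not without replicate 3 at 24 h or replicate 3 at 72 h. Both genes depended on the scaling at 72 h. When libraries were scaled by their total count, the all-gene median log2FC shifted to 0.612 (72 h), 0.203 (24 h) and -0.116 (6 h), and beside that 72 h median Dusp8 had a log2FC of -0.05 and Dusp10 one of -0.16, neither called. Directions given here are relative to TMM scaling. With library totals the 72 h values of Dusp1, Spry2 and Spry4, negative under TMM and not called, were 0.05, 0.27 and 0.30.

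The 3 Sprouty genes encode inhibitors of receptor tyrosine kinase signalling that act on the Ras to ERK route. Spry4 (ENSMUSG00000024427, chr18:38586247-38601415, minus strand) had the widest range of the 3. It held 15.9, 14.0 and 18.03 CPM in sham, 25.6, 21.0 and 22.1 CPM at 10 min and 37.6, 32.45 and 37.7 CPM at 1 h. These 3 groups did not overlap, in rising order, but neither time was called (log2FCs 0.52 and 1.17, SE 0.27 each, edgeR adjusted p = 0.779 and 0.13). DESeq2 did call the 1 h change, as did edgeR in the fit of only the 2 groups or without replicate 1 at 6 h, and limma on log2(FPKM + 0.1). The fit of only the 2 groups also called the 10 min change. At 6 h Spry4 had 102.5 CPM in replicate 1 and 43.8 and 47.3 CPM in the other two. All 3 were above every other library of the series, 4.03-fold above sham on average (log2FC 2.01, SE 0.27, edgeR adjusted p = 9.17e-05). Without replicate 1 the mean was 45.5 CPM in place of 64.5 and the log2FC 1.51, still called. The step from 1 to 6 h (0.84, edgeR adjusted p = 0.027) was not called without replicate 1 at 6 h (0.34, adjusted p 0.166), without any of the 1 h libraries, or in 4 of 9 other settings.

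After 6 h Spry4 fell. It held 25.6, 26.4 and 38.9 CPM at 24 h, 2.13-fold below 6 h (-1.09, edgeR adjusted p = 0.00579) and 1.89-fold above sham (log2FC 0.92, SE 0.27, edgeR adjusted p = 0.0112). The decrease from 6 h was -0.59 without replicate 1 at 6 h, still called, and was not called in the fit of only those 2 groups. The difference from sham was 0.70, with an adjusted p of 0.0723, without replicate 3. At 72 h the libraries held 14.2, 13.9 and 11.3 CPM and overlapped sham (log2FC -0.28, 95% interval -0.81 to 0.24), a further 2.30-fold decrease from 24 h (edgeR adjusted p = 0.0014). The fit of only the 72 h and sham libraries called Spry4 lower than sham.

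Spry1 (ENSMUSG00000037211, chr3:37639947-37644598, plus strand) was called higher than sham at 1 and 6 h and overlapped sham at 24 and 72 h in TMM-scaled CPM. Its sham libraries held 32.05, 35.6 and 32.2 CPM, those at 10 min 47.1, 39.1 and 40.9 CPM, and those at 1 h 51.2, 57.4 and 53.5 CPM. At 1 h it was 1.62-fold above sham (log2FC 0.70, SE 0.14, edgeR adjusted p = 0.0333). That call was lost in 3 of 9 other settings and in 10 of 18 fits without a library. At 6 h it held 67.7, 44.5 and 62.1 CPM, 1.75-fold above sham (0.80, SE 0.14, edgeR adjusted p = 0.000405; 0.68 without replicate 1). The 24 h libraries, with 31.4, 34.7 and 23.9 CPM, were all below the 6 h libraries (log2FC -0.95, SE 0.14, edgeR adjusted p = 0.000131) and overlapped sham (-0.15, 95% interval -0.42 to 0.13; -0.01 without replicate 3). At 72 h Spry1 held 35.3, 33.8 and 34.4 CPM, also overlapping sham (0.05, 95% interval -0.22 to 0.32); with library totals in place of TMM it stood at 0.64 and was called higher, as it was by both limma fits, beside the shifted all-gene median of 0.612.

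Spry2 (ENSMUSG00000022114, chr14:105891947-105896819, minus strand) held 20.4, 18.05 and 17.8 CPM in sham and 19.1 to 19.7 CPM at 10 min, where the groups overlapped. At 1 h it held 24.4, 27.7 and 26.1 CPM, all above sham and not called (log2FC 0.47, SE 0.16, edgeR adjusted p = 0.552). The fit of only those 2 groups did call this change. At 6 h it held 49.2, 32.25 and 34.2 CPM, 2.05-fold above sham (1.04, SE 0.16, edgeR adjusted p = 0.000132; 0.83 without replicate 1). The rise from 1 to 6 h (0.56, edgeR adjusted p = 0.0137) was not called without replicate 1 at 6 h, without replicate 1 at 1 h or with limma on log2(FPKM + 1). At 24 h, with 18.1, 20.8 and 29.2 CPM, it had fallen from 6 h (-0.77, edgeR adjusted p = 0.00169; not called in the fit of only those 2 groups) and stood at 0.27 against sham, or 0.05 without replicate 3. That 24 h difference from sham was called with library totals and with limma. At 72 h, with 14.5, 15.9 and 14.7 CPM, Spry2 fell again (-0.59, edgeR adjusted p = 0.00445; -0.38 without replicate 3 at 24 h). The 72 h libraries were all below sham, with an edgeR adjusted p of 0.0871. They were called lower in the fit of only those 2 groups, and without replicate 1 at 6 h or replicate 3 at 24 h.

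Consecutive times were then compared directly. Between 1 and 6 h 4 members rose (Dusp2, Dusp5, Spry2 and Spry4), against 14.5% of all genes, and 1 fell (Dusp1), against 10%. Between 6 and 24 h 4 fell (Dusp1 and the 3 Sprouty genes), against 13.7%, and 0 rose by edgeR with TMM at an adjusted or unadjusted p under 0.05, against 14.2%. Between 24 and 72 h 6 fell (Dusp1, Dusp5, Dusp8, Dusp10, Spry2 and Spry4), against 26.1%, and again 0 rose by that test at either p, against 24.4%. Without replicate 3 at 24 h, Dusp2 was called higher in that step. These steps depended on the scaling too: with library totals, and with limma on FPKM at either pseudocount, the decreases of Dusp5, Dusp10 and Spry2 from 24 to 72 h were not called and Dusp2 and Spry1 were called higher. The decrease of Dusp1 in that step was not called with library totals or with limma on log2(FPKM + 1), and Dusp6 was called higher from 6 to 24 h with library totals and with limma on log2(FPKM + 0.1). The decreases of Dusp8 and Spry4 from 24 to 72 h, and that of Spry1 from 6 to 24 h, were called in every alternative fit. Counted on TMM-scaled CPM without a model, the members whose 3 libraries all lay above the 3 sham libraries were 5 at 10 min (11% of all genes did so), 8 at 1 h (8.25%), 9 at 6 h (23.1%), 7 at 24 h (28%) and 3 at 72 h (39.3%). Those all below numbered 4 at 72 h (36.5%). These 72 h counts depended on the scaling as well. In the deposited FPKM, Dusp1, Dusp8 and Dusp10 overlapped sham at 72 h. Dusp4, Spry1 and Spry2 lay wholly above it there (Spry2 at 9.44 to 10.6 against 7.85 to 8.95 FPKM). Without replicate 1 at 6 h, 7 members were called against sham at 6 h and 2 in the step from 1 to 6 h, and without replicate 3 at 24 h, 3 were called at 24 h.

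To compare the genes with each other, levels were read per length, as the deposited FPKM. In sham Dusp1 was the most abundant, at 25.9 ± 3.80 FPKM (SD, n = 3), followed by Spry1 at 10.6 ± 0.510 FPKM, Spry2 at 8.33 ± 0.562 FPKM, Dusp6 at 6.43 ± 0.637 FPKM and Dusp8 at 6.40 ± 0.379 FPKM. Below these stood Spry4 at 3.23 ± 0.503 FPKM, Dusp10 at 2.32 ± 0.305 FPKM, Dusp5 at 1.90 ± 0.119 FPKM, Dusp4 at 1.01 ± 0.248 FPKM and Dusp2 at 0.135 ± 0.0160 FPKM. The ranges of Dusp6 and Dusp8, and of Dusp10 and Dusp5, overlapped; all other neighbours in this order were apart. Dusp1 made up 39.1% of the summed FPKM of the 10 genes in sham, 70.4% at 1 h and 29.4% at 72 h. By 6 h the libraries of Spry1, Spry2, Spry4, Dusp5, Dusp6 and Dusp8 overlapped in a chain from 17.1 to 7.58 FPKM. At 72 h Dusp6, at 16.8 ± 2.51 FPKM, was second after Dusp1 and overlapped Spry1, at 16.5 ± 0.422 FPKM. Dusp2 was last in all 6 groups, although at 72 h its range (1.35 to 1.71 FPKM) overlapped that of Dusp4 (1.55 to 2.54 FPKM).

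**Figure D3:**
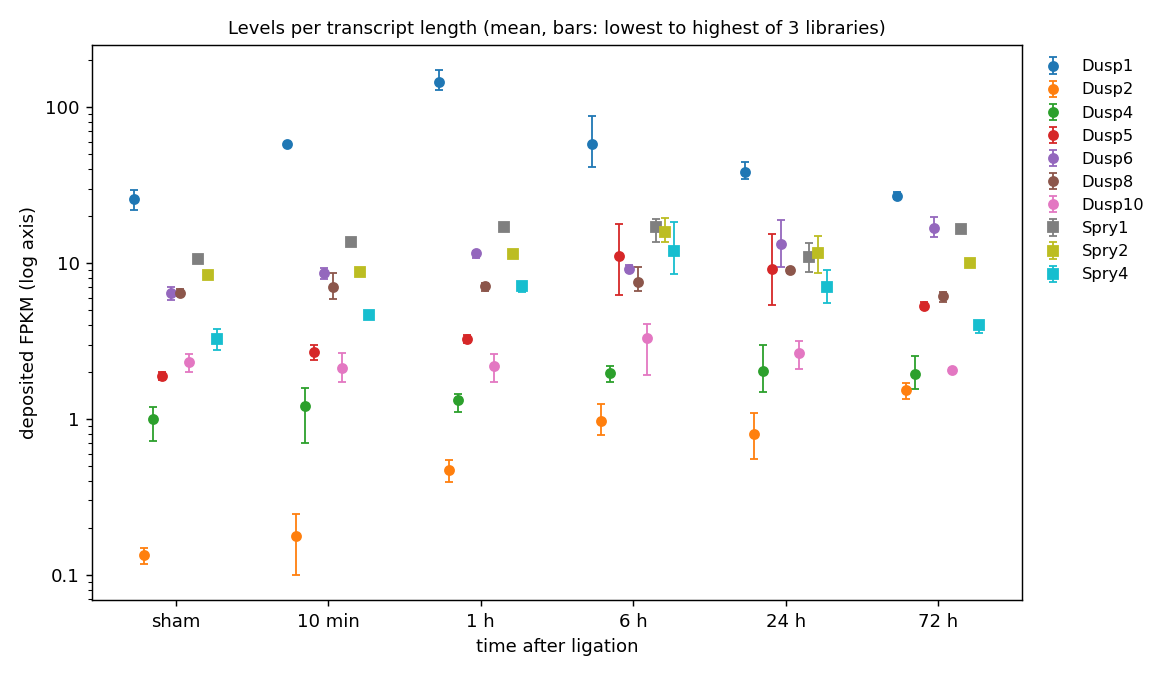
Deposited FPKM (log axis) of the 10 genes in each group; points are means and bars run from the lowest to the highest of 3 libraries. Dusp1 is the most abundant per length in every group, from 25.9 FPKM in sham to 145.5 FPKM at 1 h, and Dusp2 the least.

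The genes around the members were read from lists of the same pathway. Of the 3 other MAP kinase phosphatases, Dusp16 was higher (not with limma) and Dusp7 lower at 6 h. Dusp7 was also lower at 24 h, but not with library totals. At 72 h Dusp7 (log2FC -0.66) and Dusp16 (-0.33) were lower, neither of them with library totals. Dusp9 was higher at 24 h (not with limma on log2(FPKM + 1)) and at 72 h. It had at most 1 count in any sham library and 16 to 36 counts per library at 72 h. Of 12 tested Sprouty-family and receptor feedback inhibitors (Spry3 was not tested), only Errfi1, an inhibitor of the EGF receptor, was higher at 1 h (2.12, edgeR adjusted p = 0.0469). At 6 h 5 were higher (Spred1, Spred3, Errfi1, Socs3 and Rasal2) and 0 lower by edgeR, against 16.3% and 12.2% of all genes. At 72 h 5 were higher and 5 lower (41.7% each), against 34.2% and 32.2%. With library totals 7 were higher and 2 lower (58.3% and 16.7%), near the 58.1% and 14.6% of all genes. Those lowered at 72 h with TMM included Spred2 (-0.83), a Sprouty-related inhibitor of Raf activation, and the Ras GTPase activator Rasal2 (-0.88). Pebp1 (-0.82), which encodes the Raf kinase inhibitor protein, was also lower. Its decrease was not called with library totals or with limma, and that of Rasal2 was not called with limma. The median of the 12 at 6 h was 0.23, beside 1.06 for the members and -0.01 for all genes.

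Components of the cascades themselves were read the same way. Of 20 ERK cascade genes, 0 were called by edgeR at 10 min and at 1 h; 5 were higher and 3 lower at 6 h, 6 and 1 at 24 h, and 6 and 7 at 72 h. All genes were called higher and lower in shares of 16.3% and 12.2% at 6 h, 23.7% and 20.2% at 24 h, and 34.2% and 32.2% at 72 h, so that most of these list shares (25% and 15%, 30% and 5%, 30% and 35%) lay near the background. At 72 h Nras (1.00) and the ERK-activated kinase gene Rps6ka1 (1.88) were higher and the Raf family gene Araf (-0.69) lower. Of 18 JNK and p38 cascade genes, 4 were higher and 3 lower at 6 h, 3 and 3 at 24 h, and 2 and 11 at 72 h. Among the 11 were Map3k5 (-1.01), an upstream stress kinase gene, the JNK gene Mapk10 (-1.53) and the p38 gene Mapk12 (-1.13); the list's median at 72 h was -0.33, beside 0.03 for all genes. With library totals, 9 of the 18 were higher and 3 lower (Map3k5, Mapk10 and Mapk12) at 72 h, against 58.1% and 14.6% of all genes, with a median of 0.26 beside 0.612. The ERK cascade then had 15 of 20 higher and 1 lower (Sos2), and Araf was not called. 

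Of 10 genes known to respond to ERK, Egr1 was the only one higher at 1 h (log2FC 4.76, SE 0.49, edgeR adjusted p = 0.000258). At 6 h 6 were higher and 1 lower, against 16.3% and 12.2% of all genes, with Myc at 4.26, Egr1 at 4.23 and Ier3 at 2.23, and a list median of 1.42. At 24 h 6 were higher and 1 lower (median 1.20), against 23.7% and 20.2%, and at 72 h 3 and 1 (median -0.18), against 34.2% and 32.2%; with library totals the 72 h median was 0.40 beside 0.612 for all genes. Epha4 was the member of the list that was lower at these times. Of 11 tested FGF ligands and receptors (Fgf10, Fgf21, Fgfr4 and Klb were not tested), 0 were called by edgeR at 10 min or 1 h. At 6 h Fgf1, Fgf2 and the receptor gene Fgfr1 were higher and Fgf9 and Fgf16 lower. At 72 h Fgfr1 and Fgfr2 were higher and 5 were lower, with Fgf13 at -2.06, Fgf16 at -1.62 and Fgf1 at -1.58. With library totals 5 were higher and 5 lower, against 58.1% and 14.6% of all genes.

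**Figure D4:**
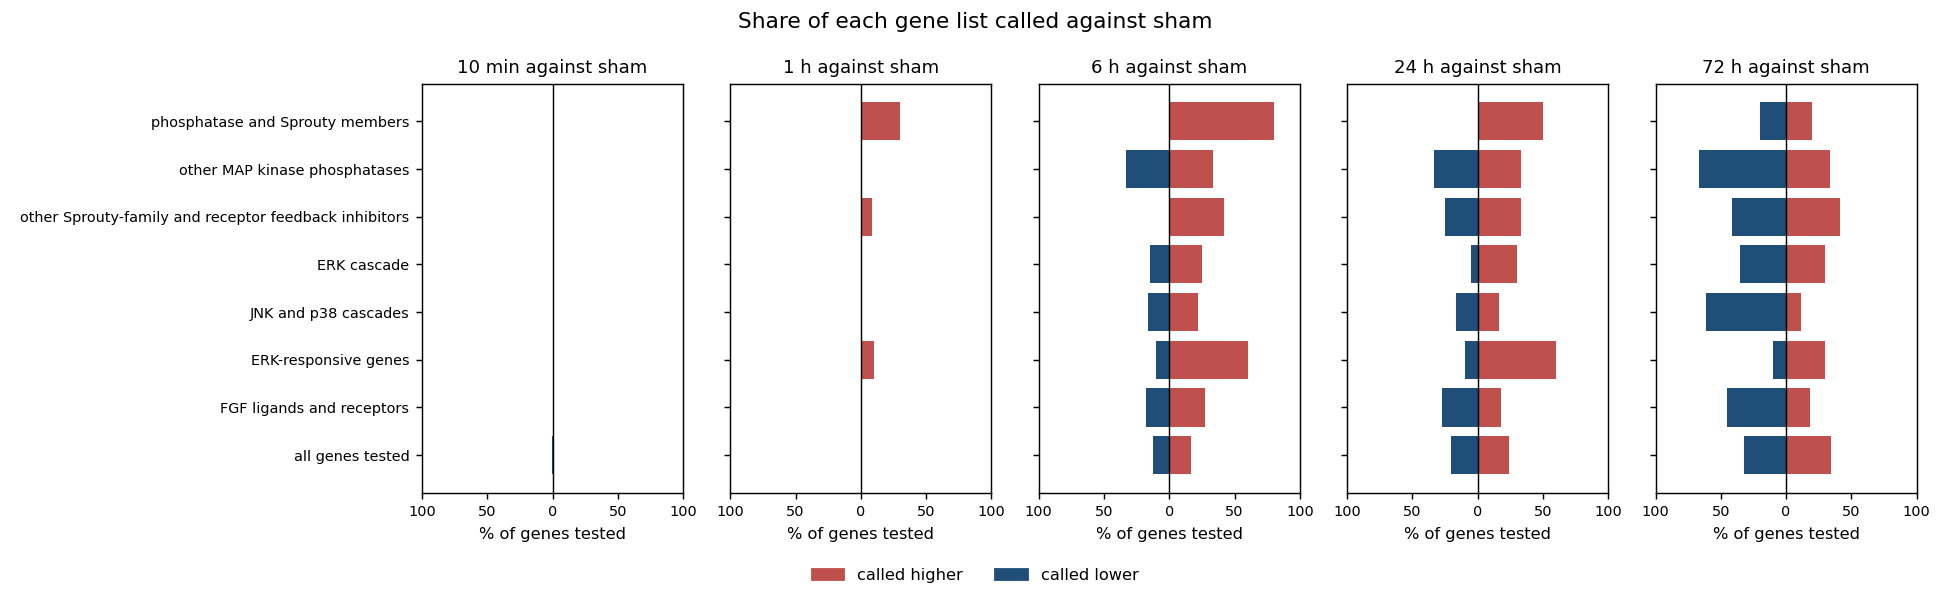
Share of the tested genes of each list called higher (right) or lower (left) than sham at each time, in % of genes tested, with all genes tested in the bottom row. At 6 h 8 of the 10 members and 6 of 10 ERK-responsive genes were higher, against 16.3% of all genes; at 72 h 11 of 18 JNK and p38 cascade genes were lower with TMM, against 32.2%, and 3 with library totals, against 14.6%.

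For the members other than Dusp5, the genes with the most similar course were found as those with the smallest root-mean-square difference of the 5 log2FCs against sham, among 11664 tested genes that averaged 50 counts or more. The values all share the sham libraries, so the likeness is a description. Dusp1 had no close partner: the nearest were Ddit4 (difference 0.43 on the log2 scale) and Sgk1 (0.51). Ddit4, a stress-induced inhibitor of mTOR signalling, stood at 0.85, 1.69, 1.25, 0.48 and -0.16 at the 5 times. Dusp2 was likewise distant from its nearest genes, Tnfaip6 (0.42) and Egr3 (0.48). Spry4 was nearest to Stc1 (0.29) and Ppp1r15a (0.31). Dusp6 was nearest to Jund (0.23) and to the ribosomal protein pseudogene Rpl28-ps3 (0.25), whose counts may be shared with its parent gene. Spry1 was nearest to Smad6 (0.16) and Hes1 (0.18), and Spry2 to Dnajb4 (0.14) and Fam117b (0.15). Dusp4 was nearest to Furin (0.08) and Rrp1b (0.11), Dusp8 to Nudt4 and Elac2 (0.06 each) and Dusp10 to Ddx3y (0.11) and Gnl2 (0.12). Within the 10, the closest pairs were Dusp8 and Dusp10 (0.25), Spry1 and Spry2 (0.32) and Dusp4 and Dusp6 (0.35).

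Some counts may include reads of overlapping genes, since use of strand in counting is not given in the sources used here. In GENCODE M21 the exons of Dusp5 overlap those of an antisense gene by 547 bases, those of Spry1 overlap an unconfirmed transcript on the opposite strand by 710 bases (at most 6 counts assigned to it in any library), and those of Dusp1 overlap Ergic1 by 11 bases. The other members had overlaps of at most 66 exonic bases, that of Dusp8.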

How the data were processed

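RNA-seq of poly(A) RNA was done on 18 libraries, 1 per mouse. Per the submitters' processing notes, cutadapt 1.18, HISAT2 2.1.0, featureCounts and mm10 were used; the annotation and use of strand are not given in the sources used here. The authors deposited counts, whole numbers of reads per Ensembl gene. The deposited FPKM are those counts over gene length and library total; at 6 h the columns of replicates 2 and 3 are exchanged in the FPKM table, which leaves the group unaffected. Symbols and coordinates came from GENCODE M21 (30489 IDs matched, 94 did not).

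The counts were fitted with edgeR 4.0.16 (R 4.3.3): filterByExpr, TMM, glmQLFit (robust) with 1 mean per group over all 18 libraries, and two-sided glmQLFTest, with Benjamini-Hochberg adjustment over 16311 genes and a threshold of 0.05. The common biological coefficient of variation was 0.149. SE is the log2 fold change divided by the root of F, and 95% intervals are normal. The script was tested on simulated data. No molecular identifiers were used, so reads are not all independent molecules. The labels give separate mice, not litters or batches. Alternatives were a replicate block, RLE or library-total scaling, no filter or a mean of at least 10 counts, only the libraries compared, DESeq2 1.42.0, limma 3.58.1 on log2(FPKM + 1) or log2(FPKM + 0.1), and leaving out each library.

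The members, lists and tests were chosen with earlier results of these data known. All members are named. From each list the 3 genes of lowest adjusted p were named, at the time with most calls. Other called genes were named in part, where they numbered 5 or fewer. For likeness, the 2 nearest genes with an established symbol were named; those of Dusp5 are not reported here. DNA methylation was not analysed here.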

Additional observations from a re-analysis of the deposited data

How the results depend on the processing

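No direction of a called member reversed in any of the alternatives run, and with RLE scaling all 100 results of single members stayed on the same side of the threshold. The number of members called was less stable. At 10 min (0 called) it was 4 in the fit of only the libraries compared, where 360 of 14510 genes were called. With DESeq2 it was 1 (60 of 16311 genes), and leaving out a library 0 to 1. At 1 h (3) it was 7 with only the libraries compared (190 of 14533 genes called) and 5 with DESeq2 (95 of 16311). It was 1 with limma on log2(FPKM + 1) (48 of 16311), and 1 to 5 leaving out a library. At 6 h (8) it was 6 to 10 leaving out a library. At 24 h (5) it was 8 with library-total scaling (7363 of 16311 genes called) and with limma at either pseudocount (7140 and 7298). Leaving out a library it was 3 to 7. At 72 h (4) it was 8 with only the libraries compared, a fit in which most genes were called (11459 of 15732). Leaving out a library it was 3 to 7. From 10 min to 1 h (1) it was 0 with no filter, where 73 of 30583 genes were called. It was 5 with only the libraries compared (244 of 14245), and 0 to 1 leaving out a library. From 1 to 6 h (5) it was 3 with limma on log2(FPKM + 1) (3325 of 16311), and 2 to 6 leaving out a library. From 6 to 24 h (4) it was 1 with only the libraries compared (1024 of 14810), and 4 to 6 leaving out a library. Leaving out a library gave 4 to 6 from 24 to 72 h (6), and 9 to 10 over any time (10). The causes were not tested. The replicate block brought the 1 h count from 3 to 1 (Dusp6 and Spry1 lost) and otherwise changed only 2 calls, Dusp10 gained from 1 to 6 h and from 6 to 24 h. Same-numbered libraries shared only a number: the correlations of their deviations ran from -0.256 to 0.252, with 4 of 45 over 0.1, so the numbers were not taken as a pairing. Of 1458 counts over lists and alternatives, 110 moved by more than 1.5 times. The 5 to 9 counts of Dusp2 per sham and 10 min library limit its early fold changes.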
